A study of Sus scrofa with 3 samples.

Results

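Tetraspanins are a family of small multi-pass membrane proteins that gather integrins, immunoglobulin superfamily proteins, proteases and each other into patches of the plasma membrane and of endosomes. They have no enzymatic activity of their own and act through the partners they hold, so that cell types differ in which members they carry. Blood leukocytes are known for CD37 and CD53, adherent cells for CD151, and extracellular vesicles of many cells for CD9, CD63 and CD81. The members were taken by name: every symbol made of TSPAN and a number, plus CD9, CD37, CD53, CD63, CD81, CD82, CD151, the uroplakins UPK1A and UPK1B and the photoreceptor proteins PRPH2 and ROM1. This gave 33 genes of the 26466 symbols in the count tables, 22 of them under TSPAN names. Family members listed under other symbols, such as unnamed LOC genes, were not looked for.

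The values came from 3 pig libraries, 1 for each of 3 populations: mononuclear cells of peripheral blood (PBMC), mesenchymal stem cells derived from bone marrow (BM-MSC), and a population whose label calls it bone marrow attached cells (BMAC). No genotype, treatment, strain, age, passage, culture condition or animal of origin is given in the labels for any of them. Libraries were made from total RNA with a Lexogen QuantSeq kit, which reads fragments near the 3' end of polyadenylated transcripts. The PBMC library held 15445903 counts, the BM-MSC library 17069344 and the BMAC library 15122997, and values are given as counts per 1000000 of the library total (CPM). With 1 library per population no difference has a replicate check and no p-value is given. Intervals in parentheses after a fold are 95% exact conditional intervals, which cover counting error only.

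The labels were set against marker genes. The 7 leukocyte markers (PTPRC, CD3E, CD2, MS4A1, CD14, ITGAM and LAPTM5) summed to 4848 CPM in PBMC against 7.26 in BM-MSC and 21.2 in BMAC, where CD14 made up most of the sum and MS4A1 was at 0. CD14 alone among them was not highest in PBMC, at 12.9 CPM there against 3.63 in BM-MSC and 17.3 in BMAC. The 5 mesenchymal markers (COL1A1, COL1A2, COL3A1, PDGFRB and THY1) summed to 49.5, 13070 and 10730 CPM in the same order, and in PBMC nearly all of that was THY1 at 48.7 CPM. In RNA from whole populations, fewer cells of a type and less RNA per cell cannot be told apart. Several members overlap another annotated gene, and since the strand setting of the counting is not given in the sources used here, each such gene is named beside its member where it held at least 25% of the member's count in any library. Levels of different members are not ranked against each other, because the counts depend on how each gene's 3' ends were annotated.

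The family was present in all 3 populations. Summed over the 33 members, the level was 2056 CPM in PBMC (95% exact Poisson interval 2033 to 2078), 3083 CPM in BM-MSC (3056 to 3109) and 2742 CPM in BMAC (2715 to 2768). Without CD63 and TSPAN5, chosen after their values were seen because they held the most counts, the sums were 854, 1287 and 1089 CPM in the same order. CD63 and TSPAN5 ran in opposite directions, at 316, 1713 and 1373 CPM against 885, 82.7 and 279 CPM. Without CD63 alone the sum would be highest in PBMC, so that the order of the full sums rests on CD63. A level of 10 CPM was reached by 15 members in both PBMC and BM-MSC, by 14 in BMAC and by 21 in at least 1 library. Of the 15 members at this level in PBMC, 10 were also at it in BM-MSC and 10 in BMAC (66.7% each, where 78.0% and 80.2% of all genes at this level in PBMC were). The other 12 stayed below 10 CPM everywhere.

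**Figure D1:**
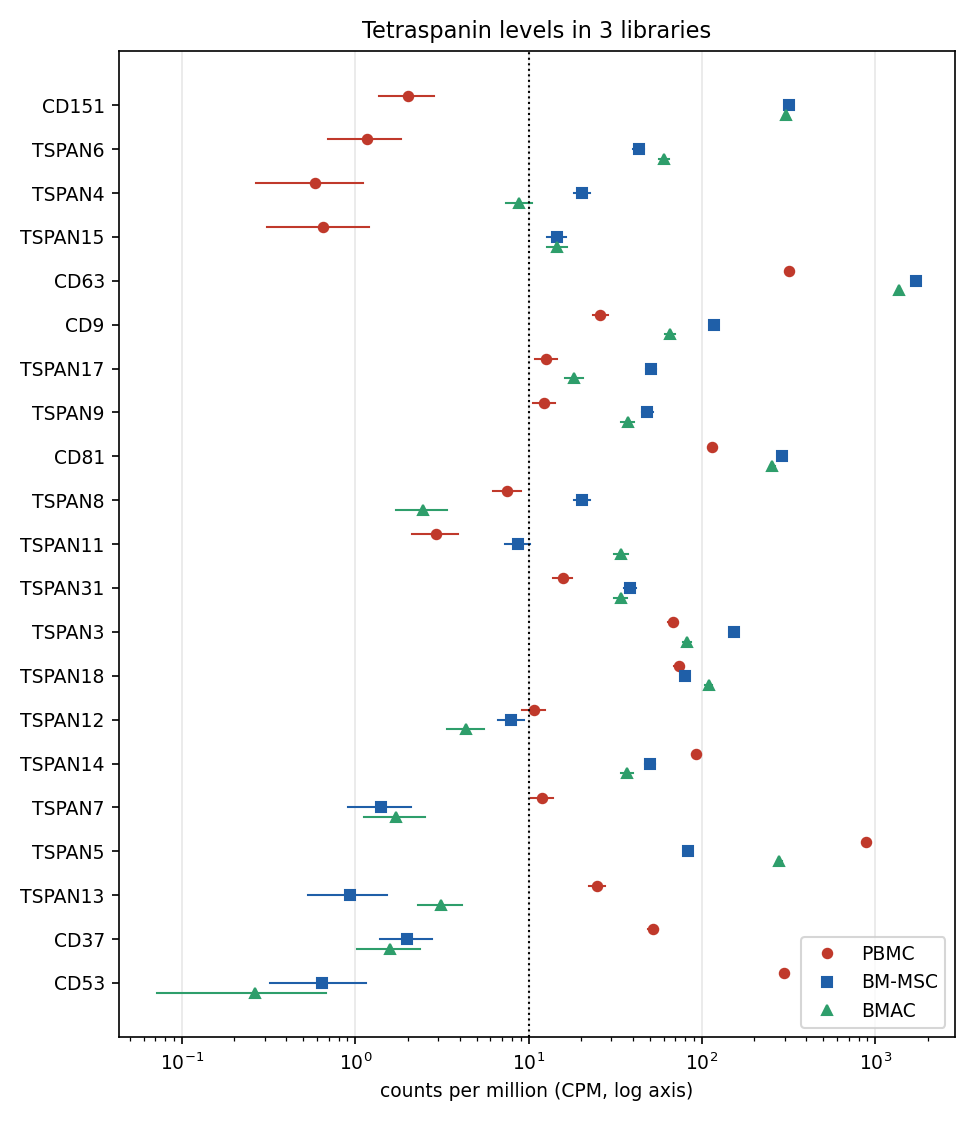
CPM (log axis) of the 21 tetraspanins with at least 10 CPM in 1 library, ordered by the BM-MSC to PBMC ratio; points are single libraries, bars are 95% exact Poisson intervals for counting error, and the dotted line marks 10 CPM. CD151, TSPAN6, TSPAN4 and TSPAN15 lie far to the left in PBMC, and CD53, CD37, TSPAN13 and TSPAN7 far to the right.

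A member was called different in a pair of libraries when log2((CPM + 1)/(CPM + 1)) was at least 2 in size, which is 4-fold after the pseudocount, with 10 CPM and 10 counts or more in the higher of the libraries. In BM-MSC against PBMC, 20 members had at least 10 CPM in 1 of the libraries. Of these, 6 were higher in BM-MSC (CD151, TSPAN6, TSPAN4, TSPAN15, CD63 and CD9) and 5 higher in PBMC (CD53, CD37, TSPAN13, TSPAN5 and TSPAN7). The same rule called 30.0% of all 11428 genes that reached this floor, 14.3% towards BM-MSC and 15.7% towards PBMC. The members called came to 55.0% of those above the floor, but 10 of the 20 reached the floor through 1 library alone, 5 through each, which favours a call. The median log2 ratio was 1.28 over these 20 members, 0.08 over all 33 and -0.16 over all genes above the floor.

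In BMAC against PBMC, which uses the same PBMC library, 19 members were above the floor. Of these, 5 were higher in BMAC (CD151, TSPAN6, TSPAN15, TSPAN11 and CD63) and 4 higher in PBMC (CD53, CD37, TSPAN13 and TSPAN7). The rule called 26.8% of all 11371 genes that reached the floor in this pair, 14.0% towards BMAC and 12.8% towards PBMC. The median log2 ratio was 0.57 over the 19 members, of which 9 reached the floor through 1 library, 0.00 over all 33 and -0.12 over all genes above the floor. Scaling by TMM or median-of-ratios factors in place of library totals moved the median of all genes to 0.23 and 0.26 in BM-MSC against PBMC and to 0.21 and 0.22 in BMAC against PBMC. The members' median moved with it, to 1.62 and 1.65 in the first pair and 1.09 and 1.10 in the second, and the direction turned for 0 of the members above the floor in these pairs. The share of all calls that were higher in the marrow cells moved from 47.6% to 58.5% and 59.5% in the first pair and stood at 52.3%, 60.0% and 60.5% in the second.

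**Figure D2:**
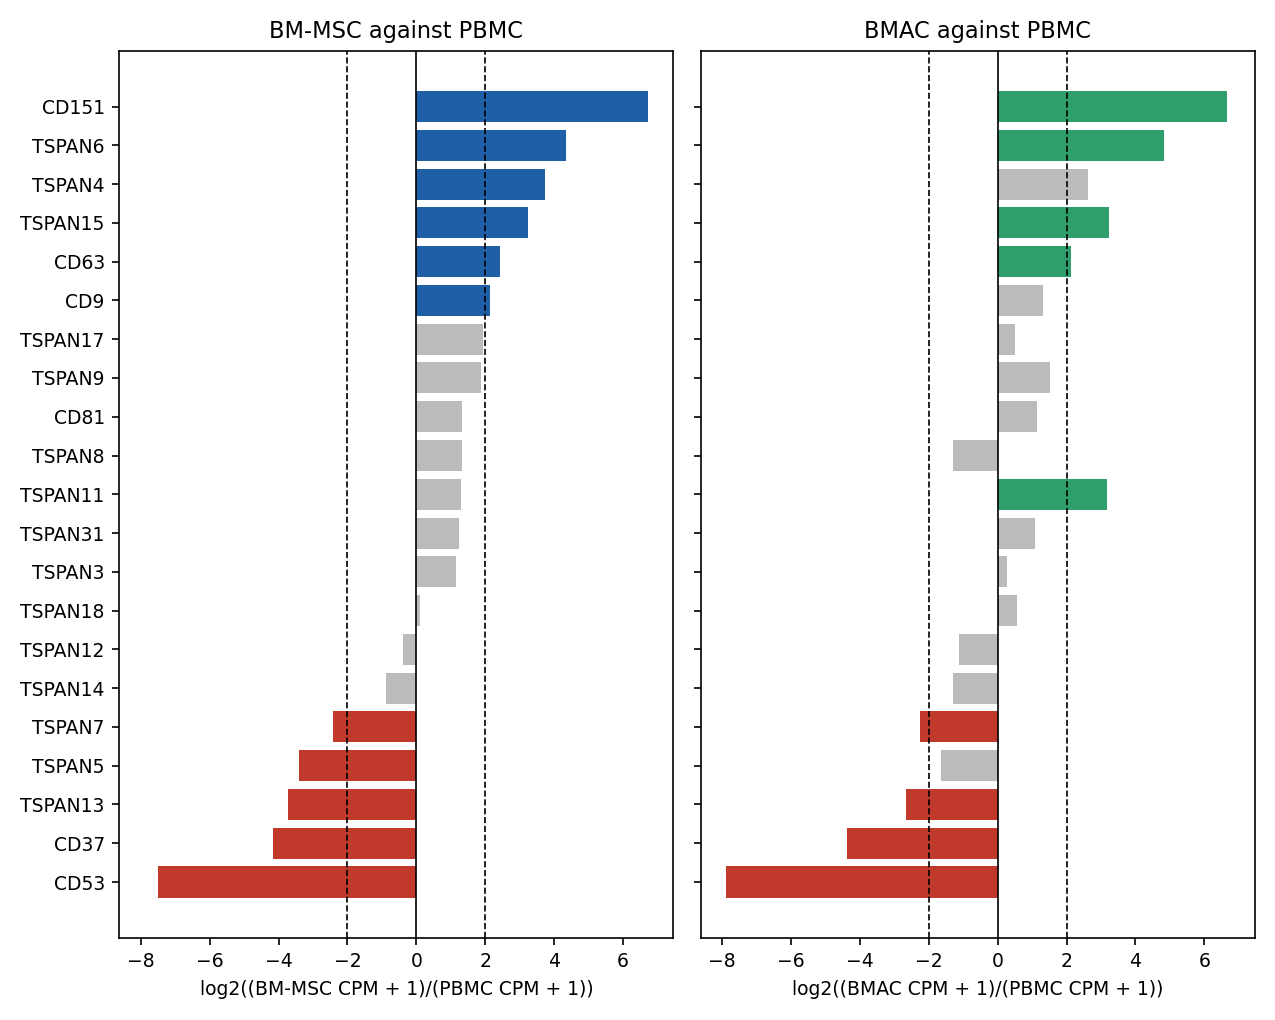
Log2 ratio of BM-MSC (left) and BMAC (right) to PBMC with a pseudocount of 1 CPM, for the same 21 members in the same order; both panels share the PBMC library, dashed lines mark 4-fold, coloured bars passed the rule and grey bars did not. TSPAN4 is grey on the right because it stayed below 10 CPM in both BMAC and PBMC, and TSPAN11 passed on the right only.

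CD151 had the largest ratio of any member towards the marrow cells. It is the tetraspanin that binds laminin-binding integrins and sits in the adhesion structures of attached cells. It stood at 2.01 CPM in PBMC against 319 in BM-MSC and 304.5 in BMAC. The PBMC value rests on 31 counts, and both marrow libraries lie far above it. The fold over PBMC was 159 (112 to 234) in BM-MSC and 152 (107 to 224) in BMAC, and between the marrow libraries it was 1.05 (1.01 to 1.09).

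CD63 is the tetraspanin of late endosomes, lysosomes and exosomes, and a cell surface receptor for the protease inhibitor TIMP1. It stood at 316 CPM in PBMC against 1713 in BM-MSC and 1373 in BMAC, from 4884, 29237 and 20765 counts. It was abundant in blood cells too and was higher in BM-MSC by 5.42-fold (5.26 to 5.58) and in BMAC by 4.34-fold (4.21 to 4.48). CD9 and CD81, close relatives that bind the immunoglobulin superfamily proteins PTGFRN and IGSF8, followed the same order with smaller folds. CD9 stood at 25.9 CPM in PBMC against 117 in BM-MSC and 65.5 in BMAC. It passed the 4-fold rule in BM-MSC at 4.51-fold over PBMC (4.05 to 5.03) and did not in BMAC at 2.53-fold (2.25 to 2.85). With a pseudocount of 5 CPM the BM-MSC call was lost, at a log2 ratio of 1.98. CD81 stood at 114, 289 and 254 CPM in PBMC, BM-MSC and BMAC. Its folds over PBMC were 2.53 (2.39 to 2.67) and 2.22 (2.10 to 2.35), below the rule, so that all 3 of these vesicle tetraspanins were highest in BM-MSC, next in BMAC and lowest in PBMC. CD9 is also abundant in platelets. The platelet markers PPBP, ITGA2B, GP9 and GP1BA summed to 35.5 CPM in PBMC against 47.9 in BM-MSC and 37.2 in BMAC, mostly through GP9, which overlaps RAB43, while PPBP stood at 1.81, 0 and 2.51 CPM and ITGA2B at 14.8, 1.82 and 0.595 CPM. PF4, also on the platelet list, had no row and is not in these sums. The part of platelet RNA in the CD9 values was not tested.

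TSPAN6 and TSPAN4 were also very low in blood. TSPAN6, known as an inhibitor of antiviral signalling through RIG-I-like receptors, stood at 1.17 CPM in PBMC against 43.1 in BM-MSC and 60.5 in BMAC. That is 36.9-fold (23.2 to 62.7) and 51.9-fold (32.7 to 88.0) over the 18 counts in PBMC. TSPAN4, which builds migrasomes, the vesicles left behind on retraction fibres by migrating cells, stood at 0.583 CPM in PBMC against 20.3 in BM-MSC and 8.79 in BMAC. It was higher than in PBMC by 34.9-fold (18.2 to 76.9) in BM-MSC and 15.1-fold (7.72 to 33.7) in BMAC, where it missed the floor. TSPAN4 overlaps POLR2L, a subunit gene of RNA polymerase, whose counts were 1102, 3436 and 1530 against 9, 347 and 133 for TSPAN4. The part of POLR2L reads in the TSPAN4 count was not tested.

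TSPAN9, TSPAN31 and TSPAN3 were higher in the marrow cells without passing 4-fold. TSPAN9, a tetraspanin of platelets and megakaryocytes, stood at 12.3 CPM in PBMC against 48.4 in BM-MSC and 37.3 in BMAC. Its fold over PBMC in BM-MSC, 3.93 (3.36 to 4.63), lay at the edge of the rule, and it was called with both alternative size factors. In BMAC it was 3.03-fold (2.57 to 3.59) over PBMC. TSPAN31, first found in an amplified region of sarcomas, stood at 15.7, 38.3 and 34.0 CPM in the same order. Its folds over PBMC were 2.44 (2.11 to 2.85) and 2.17 (1.86 to 2.54), and the overlapping gene AGAP2 held 107 counts beside its 242 in PBMC but only 7 and 12 in the marrow libraries. TSPAN3 stood at 67.9 CPM in PBMC against 152 in BM-MSC and 81.7 in BMAC, so that BMAC lay close to blood with a fold of 1.20 (1.11 to 1.31). TSPAN18, which regulates calcium entry in endothelial cells, was close between blood and BM-MSC with library totals, at 73.2, 79.8 and 109 CPM in PBMC, BM-MSC and BMAC. It overlaps TP53I11, whose counts ran the other way at 1595, 425 and 103.

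CD53 and CD37 marked the other side. Both are tetraspanins of leukocytes, where they organise adhesion and antigen receptor signalling. CD53 stood at 299 CPM in PBMC against 0.644 in BM-MSC and 0.264 in BMAC, the marrow values from 11 and 4 counts. The fold was 463 (259 to 929) over BM-MSC and 1129 (441 to 4146) over BMAC, and the marrow libraries did not differ beyond counting error at 2.44-fold (0.722 to 10.5). CD37 stood at 52.3 CPM in PBMC against 1.99 in BM-MSC and 1.59 in BMAC. It was higher in PBMC by 26.3-fold (18.6 to 38.2) over BM-MSC and 33-fold over BMAC (22.0 to 51.7). CD37 overlaps TEAD2, a transcription factor gene of the Hippo pathway, with 156 counts in PBMC against 808 for CD37, but 99 against 34 in BM-MSC and 81 against 24 in BMAC. Whether the low CD37 counts in marrow cells came from TEAD2 was not tested. Beside these values, PTPRC (CD45) stood at 2884 CPM in PBMC against 1.11 in BM-MSC and 1.85 in BMAC, and CD3E at 203, 0.469 and 0.264 CPM.

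The other members of the leukocyte list were low even in blood. CD82, a suppressor of metastasis, stood at 7.64 CPM in PBMC against 6.15 in BM-MSC and 2.84 in BMAC. It was thus nearly level between blood and BM-MSC, at 1.24-fold (0.947 to 1.63), and 2.69-fold (1.88 to 3.90) lower in BMAC than in PBMC. TSPAN32, a haematopoietic member, stood at 4.73, 2.64 and 2.71 CPM. TSPAN33, known from activated B cells and from erythroid precursors, stood at 7.90, 1.41 and 0.595 CPM, which is 5.62-fold (3.60 to 9.10) and 13.3-fold (6.77 to 29.7) higher in PBMC but below the 10 CPM floor. Of the 5 listed leukocyte tetraspanins, CD37 and CD53 were above the floor. Both reached it through PBMC alone, which favours a call towards PBMC, so that their calls (beside 15.7% and 12.8% of all genes) describe these genes only.

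TSPAN13 and TSPAN7 were higher in blood as well. TSPAN13 stood at 24.8 CPM in PBMC against 0.937 in BM-MSC and 3.11 in BMAC, so that it was 26.5-fold (16.1 to 46.7) and 7.98-fold (5.88 to 11.1) higher in PBMC. Its BMAC value exceeded that of BM-MSC by 3.32-fold (1.85 to 6.26), with both below the floor, and the call in BMAC against PBMC was lost with a pseudocount of 5 CPM at a log2 ratio of -1.88. TSPAN7, a gene mutated in X-linked intellectual disability and abundant in neurons, stood at 12.0 CPM in PBMC against 1.41 in BM-MSC and 1.72 in BMAC. It was higher in PBMC by 8.52-fold (5.55 to 13.6) and 6.97-fold (4.61 to 11.0), and with a pseudocount of 5 CPM it was below the rule in both pairs. TSPAN12, a coreceptor that strengthens signalling of Norrin through FZD4, stood at 10.7, 7.91 and 4.36 CPM and was not called in any pair. FZD4 itself stood at 19.7 CPM in PBMC against 102 in BM-MSC and 29.8 in BMAC, and the Norrin gene NDP was under 1 CPM in each library.

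The TspanC8 subgroup, whose members carry the metalloprotease ADAM10 out of the endoplasmic reticulum and steer it to its substrates, was split between the populations. TSPAN5 stood at 885 CPM in PBMC against 82.7 in BM-MSC and 279 in BMAC. BM-MSC was lowest, 10.7-fold (10.1 to 11.3) below PBMC, and BMAC lay between, 3.17-fold (3.06 to 3.28) below PBMC and 3.38-fold (3.18 to 3.59) above BM-MSC. TSPAN14 was also highest in blood, at 91.9 CPM, with 49.9 in BM-MSC and 36.9 in BMAC, or 1.84-fold (1.69 to 2.01) and 2.49-fold (2.26 to 2.75).

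TSPAN15, TSPAN17 and TSPAN10 went the other way. TSPAN15, which directs ADAM10 to N-cadherin, stood at 0.647 CPM in PBMC and 14.5 CPM in BM-MSC and BMAC alike, 22.4-fold (12.0 to 47.2) and 22.5-fold (12.0 to 47.5) over the 10 counts in PBMC. With a pseudocount of 5 CPM both calls were lost, at log2 ratios of 1.79. TSPAN17 stood at 12.6 CPM in PBMC against 50.9 in BM-MSC and 18.3 in BMAC. It was at the edge of the rule in BM-MSC, 4.03-fold (3.45 to 4.73) over PBMC without the pseudocount, and called there with both alternative size factors. TSPAN10 stayed below 10 CPM, at 0.712, 6.85 and 5.95 CPM, though its folds over the 11 counts in PBMC were 9.63 (5.19 to 19.8) and 8.36 (4.45 to 17.3).

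**Figure D3:**
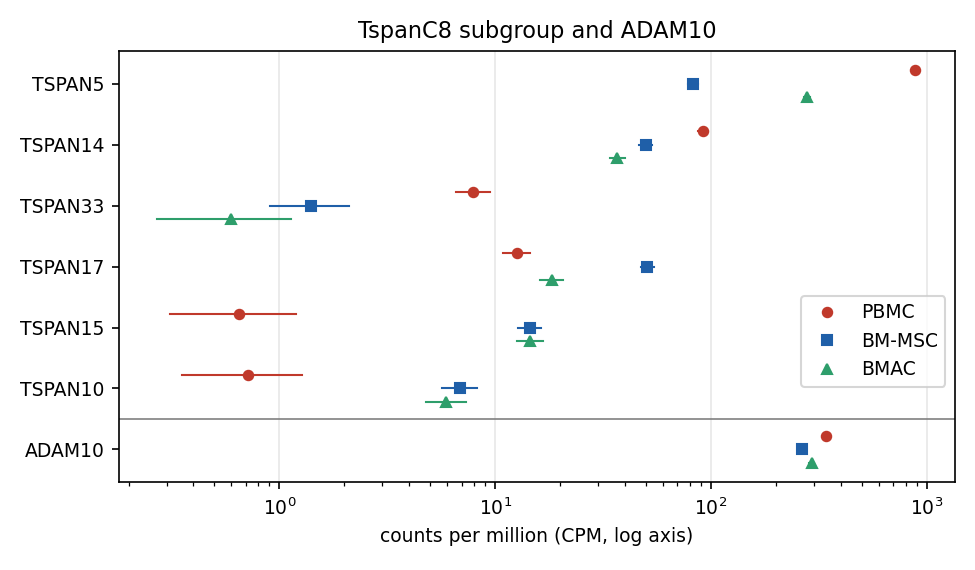
CPM (log axis) of the 6 TspanC8 members and, under the grey line, of their protease partner ADAM10; points are single libraries and bars are 95% exact Poisson intervals. TSPAN5, TSPAN14 and TSPAN33 are highest in PBMC and TSPAN17, TSPAN15 and TSPAN10 lowest there, while the 3 ADAM10 points lie between 263 and 343 CPM.

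ADAM10 was not called in any pair. It stood at 343 CPM in PBMC against 263 in BM-MSC and 293 in BMAC, and the folds between PBMC and the marrow cells were 1.3 (1.25 to 1.36) and 1.17 (1.13 to 1.22). The second of these turned direction with TMM or median-of-ratios factors, at log2 ratios of 0.05 and 0.06 for BMAC against PBMC. Summed, the 6 TspanC8 members stood at 999 CPM in PBMC against 206 in BM-MSC and 356 in BMAC. Without TSPAN5, left out after its values were seen, the sums were 114, 124 and 76.3 CPM, so that TSPAN5 held most of the difference between blood and marrow. Of the 4 subgroup members above the floor, 1 was called towards BM-MSC (TSPAN15) and 1 towards PBMC (TSPAN5) in the first pair, and 1 towards BMAC (TSPAN15) and 0 towards PBMC in the second, where 30.0% and 26.8% of all genes were called. TSPAN15 reached the floor through the marrow library alone in both pairs, which favours its calls.

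BM-MSC and BMAC were set against each other directly to describe how the marrow populations differ. Of 16 members above the floor, 1 was higher in BM-MSC by the 4-fold rule (TSPAN8) and 0 were higher in BMAC, where 2.90% and 3.21% of all 10303 genes above the floor were called, together 6.11%. The median log2 ratio was 0.25 over the 16 members and -0.09 over all genes. By a 2-fold rule, 3 members were higher in BM-MSC (TSPAN8, TSPAN17 and TSPAN4) and 2 in BMAC (TSPAN11 and TSPAN5), where 8.20% and 11.1% of all genes were called, together 19.3%. Of the 16 members, 2 reached the floor through BM-MSC alone (TSPAN8 and TSPAN4) and 1 through BMAC alone (TSPAN11), which favours a call. On the pairs with blood the same 2-fold rule took 12 members towards BM-MSC and 5 towards PBMC (26.4% and 31.8% of all genes, together 58.1%), and 9 towards BMAC and 7 towards PBMC (24.8% and 26.4%, together 51.2%).

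TSPAN8, known from epithelia and carcinomas, was the member with the largest ratio between the marrow cells. It stood at 7.51 CPM in PBMC against 20.3 in BM-MSC and 2.45 in BMAC, so that BMAC was lowest of the 3. BM-MSC was 8.29-fold (5.89 to 12.0) above BMAC and 2.70-fold (2.18 to 3.36) above PBMC. The call was lost with a pseudocount of 5 CPM, at a log2 ratio of 1.76. The gene overlaps LGR5, which held 68, 59 and 28 counts beside 116, 346 and 37 for TSPAN8, so that the BMAC value in particular is uncertain. The epithelial markers EPCAM, KRT8, KRT18, CDH1 and KRT19 summed to 14.2 CPM in PBMC against 2.34 in BM-MSC and 1.98 in BMAC, with EPCAM, KRT18 and KRT19 at 0 in BM-MSC. CDH1 alone made up most of each sum, at 13.4, 2.285 and 1.19 CPM in the same order.

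TSPAN11 was the member with the largest ratio in the other direction. It stood at 2.91 CPM in PBMC against 8.67 in BM-MSC and 34.1 in BMAC. BMAC was highest, 11.7-fold (8.63 to 16.3) above PBMC and 3.94-fold (3.27 to 4.76) above BM-MSC, the latter just below the rule. TSPAN6 and TSPAN18 were also highest in BMAC but by less, 1.40-fold (1.27 to 1.55) and 1.37-fold (1.27 to 1.47) over BM-MSC. TSPAN17, TSPAN4, TSPAN3 and CD9 were higher in BM-MSC than in BMAC with ratios of 2.78 (2.42 to 3.19), 2.31 (1.89 to 2.84), 1.86 (1.74 to 2.0) and 1.78 (1.65 to 1.93). Of the 21 members with at least 10 CPM somewhere, 9 ran BM-MSC, BMAC, PBMC from high to low, 4 ran BMAC, BM-MSC, PBMC, 4 ran PBMC, BM-MSC, BMAC, 3 ran PBMC, BMAC, BM-MSC, and TSPAN8 alone ran BM-MSC, PBMC, BMAC. In these orders the marrow values of CD53, CD37, TSPAN7 and TSPAN15 did not differ beyond counting error, and those of TSPAN15, 1.01-fold apart (0.834 to 1.21), changed order with the other scalings.

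**Figure D4:**
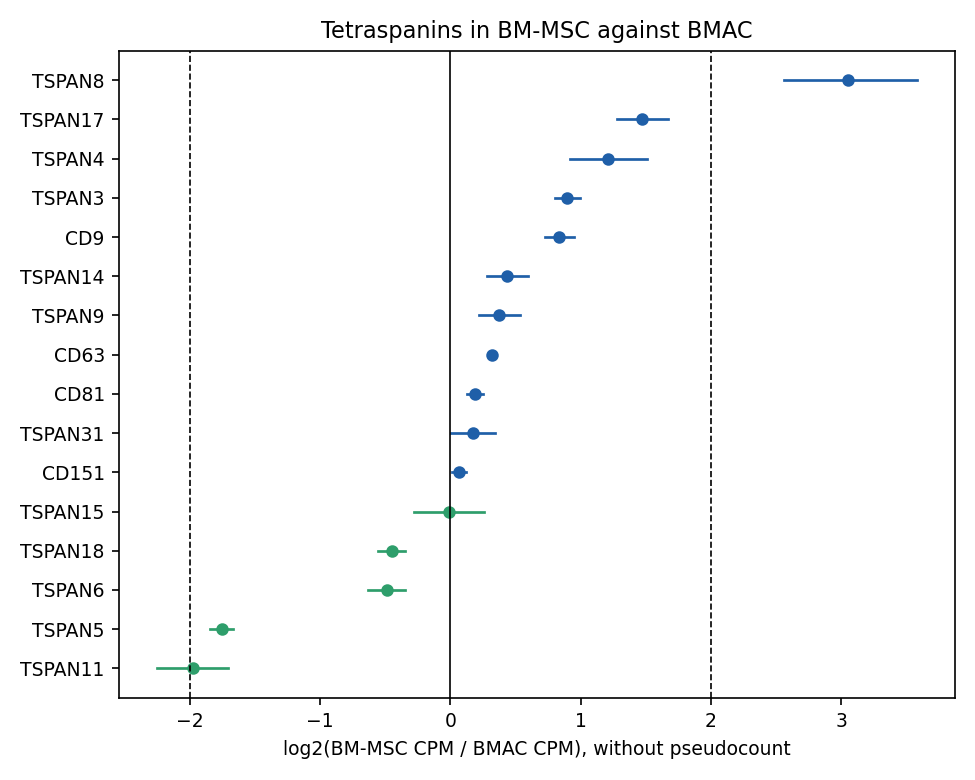
Log2 ratio of BM-MSC to BMAC without pseudocount for the 16 members with at least 10 CPM in 1 of the marrow libraries; points are the ratio of single libraries, bars are 95% exact conditional intervals for counting error, dashed lines mark 4-fold. TSPAN8 lies above the 4-fold line, TSPAN11 and TSPAN5 lie nearest to it on the BMAC side, and the interval of TSPAN15 spans 0.

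Members tied to specialised epithelia and to photoreceptors gave few or no counts. UPK1A and UPK1B, which form the plaques of bladder urothelium, had 2 and 9 counts in PBMC, 2 and 3 in BM-MSC and 0 in BMAC, where 0 counts allow up to 0.198 CPM by the limit of 3 counts. Their partners UPK2, UPK3A and UPK3B stayed below 3 CPM, with UPK3A at 51 counts in BM-MSC the highest of them. PRPH2 and ROM1, which shape the disc rims of photoreceptor outer segments, had 11 and 14 counts in PBMC, 13 and 16 in BM-MSC and 2 and 45 in BMAC. ROM1 was 3.28-fold (1.77 to 6.48) higher in BMAC than in PBMC at 2.98 CPM. TSPAN1, an epithelial member, had 1 count in BM-MSC and 0 in the other libraries. TSPAN16 reached 3.69 CPM in BM-MSC, TSPAN2, a tetraspanin of oligodendrocytes, 2.01 CPM in PBMC, and TSPAN19, which lies within LRRIQ1, had 6 counts in each library.

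Some members lie side by side in the genome, which the choice by name did not use. In the RefSeq gene table of the assembly Sscrofa11.1, used for order only, TSPAN11 and TSPAN9 are neighbours with 0 genes between them, and CD151 and TSPAN4, TSPAN32 and CD81, and TSPAN18 and CD82 are each separated by 1 gene start. CD151 and TSPAN4 were both low in PBMC and highest in BM-MSC, though CD151 was only 1.05-fold apart between the marrow libraries. POLR2L, which lies between them and overlaps TSPAN4, ran in the same order at 71.4, 201 and 101 CPM in PBMC, BM-MSC and BMAC. The other pairs did not share an order: TSPAN9 was highest in BM-MSC and TSPAN11 in BMAC, CD81 was lowest in PBMC and TSPAN32 highest there, and TSPAN18 was highest in BMAC and CD82 lowest there. TSPAN32 and CD82 stayed below 10 CPM in every library.

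Partner genes of tetraspanins were read from lists of their known binding proteins. Of 7 integrin partners 5 were above the floor in BM-MSC against PBMC, 2 called higher in BM-MSC (ITGA3 and ITGB1) and 2 in PBMC (ITGA4 and ITGA6), beside 14.3% and 15.7% of all genes. In BMAC against PBMC, 1 was called towards BMAC (ITGA3) and 2 towards PBMC (ITGA4 and ITGA6), beside 14.0% and 12.8%. In both pairs ITGA3 reached the floor through the marrow library alone, and ITGA4 and ITGA6 through PBMC alone, which favours these calls. ITGA3, the laminin receptor chain best known as a partner of CD151, stood at 4.79 CPM in PBMC against 23.8 in BM-MSC and 51.8 in BMAC, 4.98-fold (3.88 to 6.46) and 10.8-fold (8.51 to 13.9) over PBMC. ITGA6, the other laminin receptor chain that binds CD151, went against it, at 34.0 CPM in PBMC against 4.51 in BM-MSC and 2.51 in BMAC. Their common chain ITGB1 stood at 245, 1029 and 708 CPM. ITGA4, a leukocyte chain bound by CD81 and CD53, was at 687 CPM in PBMC and under 1 CPM in both marrow libraries.

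PTGFRN, the main binding partner of CD9 and CD81, was called higher in BM-MSC than in BMAC. It reached the floor there through BM-MSC alone, which favours the call, and 2.90% of all genes were called in this direction. It stood at 1.81 CPM in PBMC against 19.9 in BM-MSC and 2.05 in BMAC, so that BMAC was level with blood at 1.13-fold (0.656 to 1.96) and BM-MSC was 9.69-fold (6.70 to 14.5) above BMAC. Its relative IGSF8 stayed below the floor at 2.20, 6.85 and 4.10 CPM. In BM-MSC against PBMC, 5 genes of this list were above the floor. The partners on lymphocytes and antigen-presenting cells, IFITM1, SLA-DRA, CD4 and CD8A, were called towards PBMC. These 4 each reached the floor through PBMC alone, and 15.7% of all genes were called in this direction. PTGFRN was called towards BM-MSC at 11.0-fold (7.44 to 16.7). It reached the floor through BM-MSC alone, and 14.3% of all genes were called in that direction. Of the 4 list genes above the floor in BMAC against PBMC, 3 were called towards PBMC, the same without IFITM1. These 3 also reached the floor through PBMC alone, and 12.8% of all genes were called in this direction. IFITM1, an interferon-induced protein that associates with CD81, stood at 54.0 CPM in PBMC against 3.69 in BM-MSC and 13.9 in BMAC. CR2 had no row and was not analysed here.

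Among proteases, ligands and other surface partners, 4 of the 8 that reached the floor were called towards BM-MSC over PBMC (MMP14, TIMP1, CLDN1 and FZD4), 3 in BMAC (the same without FZD4), and 0 were called towards PBMC in either pair. The rule called 14.3% of all genes towards BM-MSC and 14.0% towards BMAC. MMP14 and CLDN1 reached the floor through the marrow library alone in both pairs, which favours their calls. CD44, which binds hyaluronan, and HBEGF, a growth factor precursor held by CD9, were not called, at 456 and 36.9 CPM in PBMC, 153 and 19.2 CPM in BM-MSC, and 509 and 20.2 CPM in BMAC. MMP14, a membrane protease bound by CD151 and CD63, stood at 0.324 CPM in PBMC against 360 in BM-MSC and 395 in BMAC. TIMP1, the ligand of CD63, stood at 12.8, 217 and 459 CPM. It lies within SYN1 in the gene table, and the SYN1 row held nearly equal counts, 330, 3768 and 6995 against 197, 3697 and 6935, so that the rows cannot be told apart. CLDN1, a claudin that pairs with CD81, stood at 0.259, 40.7 and 26.3 CPM. ADAM17, which overlaps IAH1 and is bound by CD9, was level at 59.2, 58.3 and 59.1 CPM, and with TMM factors its log2 ratio to PBMC was 0.31 in BM-MSC and 0.27 in BMAC.

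Of 11 genes of palmitoylation and vesicle formation above the floor, 2 were called in BM-MSC against PBMC and 1 in BMAC against PBMC, where 30.0% and 26.8% of all genes were called. ZDHHC2, an enzyme that palmitoylates CD9 and CD151, stood at 6.02 CPM in PBMC against 28.9 in BM-MSC and 20.0 in BMAC, and was called in BM-MSC at 4.81-fold (3.84 to 6.07) but not in BMAC. RAB27A, a regulator of granule and exosome release, was called towards PBMC in both pairs, at 172 CPM in blood but 2.34 in BM-MSC and 3.31 in BMAC. ZDHHC2 reached the floor through the marrow library alone and RAB27A through PBMC alone, which favours these calls. SDCBP, the syntenin that binds the tail of CD63, stood at 80.3, 272 and 168 CPM, with the overlapping gene NSMAF at 968, 4659 and 2494 counts beside 1240, 4635 and 2540 for SDCBP.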

How the data were processed

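Gene expression was measured in 3 pig libraries, 1 per population. The authors deposited raw counts for each annotated gene, which can be told from whole numbers and unequal totals. Libraries were made from 500 ng of total RNA with the Lexogen QuantSeq kit, per the labels' protocols. The tools named are Bowtie2 and bedtools, per the submitters' processing notes, which give neither their versions nor their roles. Not given in the sources used here are the build, the strand setting, the annotation and how reads with several matches were counted.

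The 26965 rows were summed to 26466 symbols, all in the RefSeq table of Sscrofa11.1, which was used for names, overlaps and gene order only. Counts were scaled by library total, and the call rule was applied to all genes with a floor of 10 CPM. At 10 CPM a library holds 154, 171 and 151 counts in PBMC, BM-MSC and BMAC. Ratios for calls carry a pseudocount of 1 CPM, and printed folds carry none. Intervals are 95% exact (scipy 1.17.1) and cover counting error only, since each population has 1 library. No molecular identifiers were used, so that repeated reads of the same molecule were not told apart and the intervals may be too narrow. Size factors came from edgeR 4.0.16 (TMM) and DESeq2 1.42.0 (median of ratios), as alternatives, with no count test. The rule and intervals were run on simulated Poisson counts, with altered genes well above the floor. Such counts carry only the counting error that the intervals assume, so that the run could not check variation between animals or cultures. Every member with at least 10 CPM in 1 library is named, partner genes are named where called in a pair or tied to a named member, and members below the floor are given by counts. The members and lists were chosen with earlier results of these data known. Alternatives were the pseudocount, the floor, the fold, the scaling, the handling of repeated symbols and the removal of overlapping members. No sequences of the members are shown, and the protein features planned for description were not analysed here. 1 gene was removed from the marker and partner lists and is not reported here, and counts over lists include other members that are not named.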

Additional observations from a re-analysis of the deposited data

How the results depend on the processing

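No paired analysis was possible because each population has 1 library, so leaving out a replicate was not possible either. With a floor of 50 CPM, members called were 3 towards BM-MSC and 3 towards PBMC in BM-MSC against PBMC, 3 towards BMAC and 2 towards PBMC in BMAC against PBMC, and 0 in BM-MSC against BMAC, since fewer members were above it (11, 11 and 9). Of all genes above that floor, 856 and 1056 of 5203 were called in the first pair, 907 and 811 of 5162 in the second and 122 and 176 of 4229 in the third. With a pseudocount of 5 CPM, 4 members were called towards BM-MSC and 4 towards PBMC in the first pair. In the second pair 4 were called towards BMAC and 2 towards PBMC, and in the third 0 were called. Calls over all genes fell too, to 1155 and 1258 of 11428 in the first pair and 1147 and 1053 of 11371 in the second. In the third they were 176 and 198 of 10303. With a 2-fold rule the counts were 12 towards BM-MSC in the first pair, 9 towards BMAC and 7 towards PBMC in the second, and 3 and 2 towards BM-MSC and BMAC in the third. In the same directions this rule called 26.4% of all genes in the first pair, 24.8% and 26.4% in the second, and 8.20% and 11.1% in the third. Leaving out members that overlap another row removed TSPAN8 and gave 0 towards BM-MSC in the third pair.

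The median log2 ratio in BM-MSC against PBMC was 1.09 with a pseudocount of 5 CPM, 1.62 with TMM factors and 1.65 with those of the median of ratios. In BMAC against PBMC it was 0.38 with a floor of 1 CPM, 1.09 with TMM, 1.10 with median-of-ratios factors, 0.87 with totals that leave out ribosomal RNA rows and mitochondrially encoded genes, and 0.82 without overlapping members. In BM-MSC against BMAC it was 0.35 with those reduced totals. The summed level in PBMC, BM-MSC and BMAC was 1783, 3371 and 2890 CPM with TMM, 1744, 3356 and 2847 CPM with median-of-ratios factors, 2290, 3797 and 3164 CPM with the reduced totals, and 1906, 2922 and 2585 CPM without overlapping members, in each case lowest in PBMC and highest in BM-MSC. Each of these sums includes CD63, on which the order of the full sums rests.

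No called ratio of a named member changed direction under the other pseudocounts, scalings or handling of repeated symbols, which are the alternatives that can change a ratio. Leaving out overlapping members gave no value for CD37, TSPAN4 and TSPAN8. Of the single-member calls, 10 were lost with a floor of 50 CPM and 7 with a pseudocount of 5 CPM, among them CD9 in BM-MSC against PBMC, TSPAN15 and TSPAN7 in both pairs with blood, and TSPAN13 in BMAC against PBMC. TSPAN17 and TSPAN9 in BM-MSC against PBMC were gained with TMM, median-of-ratios factors and the reduced totals, and TSPAN4 in BMAC against PBMC with the reduced totals and with a floor of 1 CPM. With 1 library per population, depth limits only the counting error, and variation between animals or cultures is unknown.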
